A study of Mus musculus with 12 samples.

Results

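Corpus spermatozoa, taken from the middle segment of the mouse epididymis, were compared with spermatozoa taken from the testis, site by site, for DNA methylation. The members were chosen by their labelled origin: 6 of the 12 samples of the series, namely the 3 corpus samples and the 3 testicular samples. The other 6 samples came from the caput (the upstream segment) and the cauda (the downstream, storage segment); they were used here to sort sites into classes and, for a few items, as values given beside the comparison. Methylation had been measured by reduced representation bisulfite sequencing (RRBS), in which DNA is digested with a restriction enzyme that enriches for CpG-rich fragments, unmethylated cytosines are converted, and each read then counts as methylated or unmethylated at each CpG it covers.

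All samples came from untreated B6D2F1 mice that carry the transgenes CAG/su9-DsRed2 and Acr3-EGFP (line RBGS002Osb), aged 10-12 weeks. In this line the broadly active CAG promoter drives a red protein in the mitochondria and the promoter of the acrosin gene drives a green protein in the acrosome, and the spermatozoa were sorted by flow cytometry on both colours. Each sample was a pool of mice, so a replicate is a pool and not an animal. The testicular and corpus groups thus shared strain, transgenes, age and sorting and differed in the organ of origin. A testicular cell that carries both colours may still be an elongated spermatid, so that stage and organ cannot be told apart in the comparison.

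Spermatozoa leave the testis with a compact nucleus, no transcription of note and a DNA methylation pattern laid down in the male germ line: most of the genome is highly methylated, while CpG-rich promoters are largely free of methylation. They then pass through caput, corpus and cauda, where the epithelium secretes proteins, small RNAs and vesicles that reach the cell surface, and where they gain motility and the ability to fertilise. The question behind the comparison was whether the methylation pattern still differs from that of testicular cells when spermatozoa have reached the middle of the epididymis.

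The deposited table held methylated and total read counts at 14149 CpG sites, each covered by 10 reads or more in every sample. Of these sites, 13917 lay on the 19 autosomes and were tested, and they fell on 13891 CpG dinucleotides. The testicular samples held 931616, 993646 and 866593 reads at the autosomal sites in replicates 1, 2 and 3, with median coverages of 44, 53 and 45 reads per site. The corpus samples held 420774, 830802 and 605965 reads, with median coverages of 20, 42 and 30. Corpus replicate 1 thus had the lowest depth of the 6 samples. At its median coverage 1 read moved the methylation level of a site by 5 percentage points, against 2.38 points in corpus replicate 2, 3.33 points in corpus replicate 3 and 1.89 to 2.27 points in the testicular samples.

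The shortfall of corpus replicate 1 was not even across sites. Sites with low methylation in cauda samples held 52.2% of its reads, against 42.5% and 45.5% in corpus replicates 2 and 3 and 40.5% to 41.3% in the testicular samples. Sites with high methylation in cauda samples held 35.8% of its reads, against 44.4% and 42.7% in corpus replicates 2 and 3 and 46.2% to 46.8% in the testicular samples. The share of all autosomal reads that were methylated was accordingly lowest in this sample, at 41.4%, against 52.4% and 48.8% in corpus replicates 2 and 3 and 51.1%, 52.5% and 52.4% in testicular replicates 1, 2 and 3. The values below are therefore means of site percentages, in which each site has the same weight whatever its coverage.

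The mean methylation over all autosomal sites was 47.9%, 49.1% and 48.7% in testicular replicates 1, 2 and 3. It was 48.2%, 50.7% and 49.4% in corpus replicates 1, 2 and 3. The groups overlapped, with corpus replicate 1 between testicular replicates 1 and 3, and their means of 49.4% ± 1.26 (SD, n = 3) and 48.6% ± 0.606 (SD, n = 3) differed by 0.841 percentage points (exact two-sided permutation p = 0.4, where 3 samples against 3 can give no p under 0.1). The difference was 0.198 points without corpus replicate 2 and 1.46 points without corpus replicate 1. Without corpus replicate 1 the groups did not overlap (exact two-sided permutation p = 0.1). The median over sites was 3.45 points higher in corpus. The direction depended on the weighting: by the share of all reads that were methylated, corpus was lower by -4.47 points, with corpus replicate 2 inside the testicular range and corpus replicate 1 far below it.

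The share of sites at middle levels separated the groups, whose means overlapped when all samples were included. Sites with a methylation level of 20 to 80% made up 11.8%, 10.8% and 10.8% of the sites in testicular replicates 1, 2 and 3. In corpus replicates 1, 2 and 3 they made up 17.4%, 19.9% and 17.8%. All corpus samples lay above all testicular samples, and corpus replicate 2, whose depth was close to that of the testicular samples, had the highest share. At the extremes, 33.1%, 24.7% and 31.0% of sites in corpus replicates 1, 2 and 3 had no methylated read, and 28.2%, 16.0% and 24.9% had no unmethylated read. These last shares overlapped with those of the testicular samples and, within the corpus group, were highest in the sample with the lowest coverage.

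Pairs of replicates were compared within each group. Across the autosomal sites, which are not independent of each other, Pearson's r was 0.977, 0.977 and 0.985 for the pairs of testicular samples. For corpus replicates 1 and 2 it was 0.938, for replicates 1 and 3 it was 0.931, and for replicates 2 and 3 it was 0.955. These values overlapped with those between corpus and testicular samples, which ran from 0.934 to 0.962. The corpus libraries were shallower, and the part of depth in these values was not tested. A likelihood-ratio chi-square of the read counts was also averaged per site. For the pairs of replicates 1 and 2, 1 and 3, and 2 and 3 it was 2.83, 2.63 and 2.72 in corpus. In testis it was 2.66, 2.43 and 1.99. This statistic grows with depth for the same disagreement, so that it cannot compare the spread of groups of unequal depth. Corpus replicate 1 had the lowest r against testicular samples (0.934 to 0.940) and corpus replicate 2 the highest (0.957 to 0.962).

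Single sites were tested by logistic regression on the reads pooled within each group, with a likelihood-ratio test and Benjamini-Hochberg adjustment over all 13917 sites. The regression and the thresholds follow the study, which adjusted its p-values by SLIM in place of Benjamini-Hochberg. The threshold for a call was an adjusted p under 0.01 together with pooled methylation levels more than 25 percentage points apart. By this rule 375 sites were called higher in corpus, 2.69% of those tested, and 179 were called lower, 1.29% of those tested. The calls numbered 554 in all and 67.7% of them were rises. A further 1942 sites had an adjusted p under 0.01 with a difference of 25 points or less, so that the size threshold set the number of calls more than the p-value did.

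The test counts reads and does not see the spread between replicates, so the calls were set against that spread. At 260 of the 375 sites called higher (69.3%), every corpus sample lay above every testicular sample. At 125 of the 179 sites called lower (69.8%), every corpus sample lay below every testicular sample. Over all autosomal sites, called or not, the corresponding backgrounds were 992 sites (7.13%) and 558 sites (4.01%). Tools that model the spread between replicates called few sites: with limma on log ratios, under the same thresholds, 2 sites were called higher and 1 lower. With a per-site overdispersion term and an F test 0 sites were called in either direction. Of the 13917 sites tested, 1346 had an unadjusted p under 0.05 with that term and 1265 had one with limma. These unadjusted counts include sites that pass by chance. The sites called by pooled regression are therefore described below by the value of each sample.

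The called sites rose from nearly unmethylated to partly methylated, or fell from nearly fully methylated to partly methylated. Sites called higher had a median pooled methylation of 5.79% in testicular samples (interquartile range 2.80 to 16.1%) and 39.8% in corpus samples (33.0 to 51.3%). In corpus, 356 of these 375 sites lay between 20 and 80% and 19 lay above 80%. Sites called lower had a median of 93.3% in testicular samples (80.7 to 97.2%) and 60.5% in corpus samples (47.0 to 67.2%). In corpus, 167 of these 179 sites lay between 20 and 80% and 12 lay below 20%. Few called sites moved from one end of the scale to the other. The median difference was 29.8 points among rises, of which 44 exceeded 40 points and 7 exceeded 50. Among falls it was -30.1 points, with 24 beyond 40 points and 4 beyond 50.

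At the called sites the corpus samples also differed from each other more than the testicular samples did. The median range among the 3 corpus replicates was 33.2 points at sites called higher, against 9.30 points among the testicular replicates. At sites called lower these ranges were 38.5 and 10.1 points. Over all autosomal sites the medians were 6.98 and 4.41 points. The called sites were chosen on these same values and lie away from the ends of the scale in corpus, where a wider range is possible, so that the ranges are a description only.

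The 4 origins can be placed side by side at these sites. Since the sites were called on the corpus and testicular samples, the values of those samples are a description of the calls, and the values of the other samples were not used to make them. At the 375 sites called higher, mean methylation was 11.2%, 13.1% and 12.5% in testicular replicates and 37.8%, 45.0% and 46.8% in corpus replicates 1, 2 and 3. It was 79.3%, 48.9% and 47.1% in the caput samples and 14.5%, 15.4% and 14.7% in the cauda samples. The cauda samples lay near the testicular ones. All caput samples lay above all corpus samples, but the lowest caput sample (47.1%) was nearly level with the highest corpus sample (46.8%). Only the caput sample at 79.3% stood well apart. At the 179 sites called lower, mean methylation was 84.6%, 88.2% and 86.5% in testicular replicates and 44.2%, 61.1% and 52.8% in corpus replicates. It was 36.0%, 59.3% and 63.7% in caput and 82.8%, 82.7% and 82.0% in cauda. Here the caput and corpus samples overlapped. A caput comparison with testis would share the testicular samples used here, so no overlap of calls was computed.

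To describe each corpus pool at sites it had no part in choosing, the test was repeated with the other 2 corpus replicates against the 3 testicular samples, and the replicate left out was set beside the cauda samples, which had no part in the choice either. Without corpus replicate 1, 463 sites were called higher, and that replicate had a mean of 26.1% there against 13.5% for cauda and 45.2% for the corpus samples that made the choice. Without corpus replicate 2, 340 sites were called higher, and the replicate left out had a mean of 37.0% against 16.3% for cauda. Without corpus replicate 3, 420 sites were called higher, with a mean of 31.6% in that replicate against 13.6% for cauda. Each pool thus lay above cauda on average at sites chosen without it, and below the pools that chose them. Site by site, the replicate left out lay above the cauda mean at 66.3% of the sites for corpus replicate 1, 89.4% for replicate 2 and 78.3% for replicate 3.

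The same was done for falls. Without corpus replicate 1, 166 sites were called lower, and that replicate had a mean of 62.5% there against 81.6% for cauda. Without corpus replicate 2, 338 sites were called lower, against 179 with all samples, and that replicate had a mean of 70.5% against 79.2% for cauda. Without corpus replicate 3, 200 sites were called lower, with a mean of 67% against 84.4% for cauda. By these means corpus replicate 2 was the pool nearest to cauda at the falls chosen without it, and corpus replicate 1 the nearest at the rises chosen without it. Site by site, the replicate left out lay below the cauda mean at 69.9% of the falls for corpus replicate 1. The shares were 68.6% for replicate 2 and 76.5% for replicate 3, so that replicates 1 and 2 were close by this measure. The share of rises among all calls moved with the pool left out, from 50.1% without corpus replicate 2 to 73.6% without corpus replicate 1.

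Each corpus pool was also set alone against the 3 testicular samples, an alternative chosen after the data had been seen. These counts hold the reads of a single corpus pool, carry no spread between corpus pools and move with its depth, so that they are a description only. Corpus replicate 1 alone gave 358 rises and 548 falls, so that 39.5% of its calls were rises. Corpus replicate 2 alone gave 595 rises and 168 falls (78.0% rises), and corpus replicate 3 alone gave 471 and 334 (58.5% rises). The part of depth in these counts was not tested. Among the 375 sites called higher with all pools, corpus replicate 1 lay above all testicular samples at 293, replicate 2 at 353 and replicate 3 at 345. Among the 179 called lower, replicate 1 lay below all testicular samples at 162 and replicates 2 and 3 each at 158.

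To ask where in the methylation range the groups differed without using either group to sort the sites, sites were put into classes by their pooled methylation in cauda samples: low (under 20%), intermediate (20 to 80%) and high (above 80%). The low class held 6352 sites. Their mean methylation was 2.52%, 3.10% and 2.85% in testicular replicates 1, 2 and 3 and 5.61%, 8.06% and 6.37% in corpus replicates 1, 2 and 3. Every corpus sample lay above every testicular sample, with corpus replicate 1 the lowest of the corpus group. The means of 6.68% ± 1.25 (SD, n = 3) and 2.83% ± 0.291 (SD, n = 3) differed by 3.85 percentage points (exact two-sided permutation p = 0.1, the smallest that 3 against 3 allow). The low class held 278 of the 375 sites called higher, and 4 sites called lower. The mean difference in this class ran from 3.16 to 4.39 points when each of the 6 samples was left out in turn. The median site of this class did not differ between groups, so that the mean rests on a minority of its sites.

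The high class held 6094 sites. Their mean methylation was 95.1%, 95.7% and 95.6% in testicular replicates 1, 2 and 3 and 92.1%, 93.4% and 93.5% in corpus replicates 1, 2 and 3. Every corpus sample lay below every testicular sample, with corpus replicate 1 the lowest. The means of 93.0% ± 0.795 (SD, n = 3) and 95.5% ± 0.332 (SD, n = 3) differed by -2.50 points (exact two-sided permutation p = 0.1), and by -2.74 to -2.04 points when each sample was left out in turn. This class held 130 of the 179 sites called lower and 8 sites called higher. Without corpus replicate 2 it held 217 sites called lower. The median over its sites went the other way, 0.755 points higher in corpus.

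The intermediate class held 1471 sites, with means of 48.5%, 54.6% and 52.6% in testicular replicates 1, 2 and 3 and of 50.3%, 58.0% and 52.5% in corpus replicates 1, 2 and 3. The groups overlapped and differed by 1.70 points (exact two-sided permutation p = 0.7). The sign of this difference changed without corpus replicate 2 (-0.485 points) and without testicular replicate 1 (-0.0234 points). The class held 89 sites called higher and 45 called lower; without corpus replicate 2 it held 114 called lower, and without testicular replicate 1 it held 85. The class means of corpus thus lay above those of testicular cells at low sites and below them at high sites, and the opposite shifts partly offset each other in the mean over all sites.

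**Figure D1:**
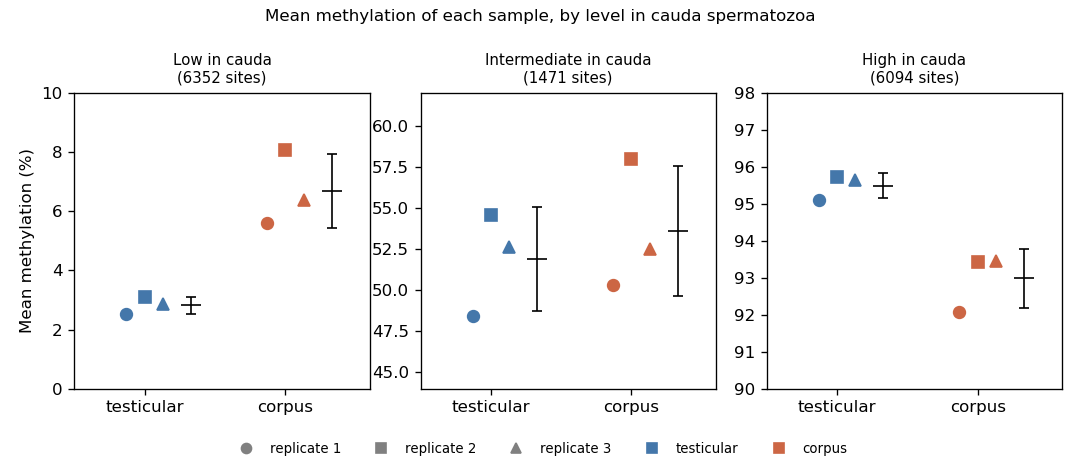
Mean methylation (%, vertical axis, with a different range in each panel) of each testicular and corpus sample over the autosomal sites with low, intermediate or high methylation in cauda samples; symbols are replicates, and the bar beside each group is its mean ± SD (n = 3). Corpus samples lie at 5.61 to 8.06% against 2.52 to 3.10% at low sites and at 92.1 to 93.5% against 95.1 to 95.7% at high sites, and the groups overlap at intermediate sites.

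Sites were next placed by gene annotation: promoter (within 2 kb of the start of any annotated transcript), otherwise exon, otherwise intron, otherwise intergenic. Promoter sites numbered 6094, with mean methylation of 19.2%, 19.9% and 19.6% in testicular replicates and 20%, 21.8% and 20.6% in corpus replicates. Here the groups did not overlap, and the difference was 1.25 points (exact two-sided permutation p = 0.1, adjusted over the 4 features 0.4). It was 0.751 points without corpus replicate 2, and the promoter sites had a median difference of 0 and were lower in corpus by -1.89 points by the share of all reads. At 877 exon sites the difference was 1.31 points (exact p = 0.3, adjusted 0.533), at 3055 intron sites -0.533 points (exact p = 0.7) and at 3891 intergenic sites 1.16 points (exact p = 0.4, adjusted 0.533), each with overlapping groups. Without corpus replicate 2 the difference was 0.582 points at exon sites and 0.248 points at intergenic sites. Without corpus replicate 1 it was 1.92 points at exon sites and 2.02 points at intergenic sites, without overlap (exact p = 0.1 for each), and 0.197 points in introns. The intron difference was -1.08 points without corpus replicate 2 and 0.657 points by the median over sites. By the share of all reads it was -2.89 points (exact two-sided permutation p = 0.1). With 20 reads or more the exon difference was 2.54 points (exact two-sided permutation p = 0.1). In these mixed classes the sign depended on the summary: the median over sites was lower in corpus by 2.03 points at exon sites and by 4.28 points at intergenic sites (exact two-sided permutation p = 0.1 for each, the smallest possible), where most sites are highly methylated.

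Promoter sites made up 43.8% of the sites tested and a smaller part of the calls, 32.0% of rises (120 sites) and 19% of falls (34 sites). Intergenic sites made up 28.0% of the sites tested, 37.9% of rises (142 sites) and 38.0% of falls (68 sites). Exon sites, 6.30% of those tested, gave 35 rises (9.33% of rises) and 17 falls (9.50% of falls). Intron sites, 22% of those tested, gave 78 rises (20.8%) and 60 falls (33.5%). Within the classes, 13.2% of low intron sites were called higher, against 4.38% of all low sites, and 2.31% of high intron sites were called lower, against 2.13% of all high sites. Without corpus replicate 2 the falls numbered 72 at promoters, 103 in introns and 140 at intergenic sites.

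Within the class of sites low in cauda, corpus and testis were set side by side in each feature. Low promoter sites, 4699 in number, had means of 1.71%, 2.0% and 1.83% in testicular replicates and 3.48%, 4.64% and 3.56% in corpus replicates. Low exon sites, 214 in number, had means of 5.02%, 5.33% and 5.88% in testicular replicates and 12.9%, 18.9% and 14.6% in corpus replicates. Low intron sites, 439 in number, had means of 4.98%, 6.68% and 6.47% in testicular replicates and 12.5%, 18.4% and 15.8% in corpus replicates. In each feature all corpus samples lay above all testicular samples, with corpus replicate 2 the highest. Low intergenic sites, 1000 in number, had means of 4.71%, 6.23% and 5.44% in testicular replicates and 11%, 17.2% and 13.6% in corpus replicates, again without overlap. The share of sites called higher was 1.87% at low promoter sites, 14.5% at low exon sites, 13.2% at low intron sites and 10.1% at low intergenic sites. Whether the features differ from each other was not tested.

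**Figure D2:**
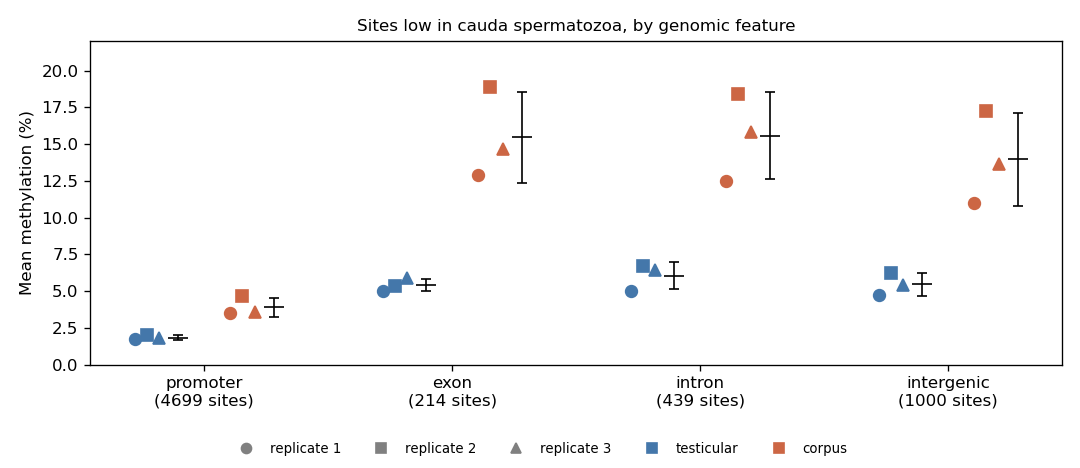
Mean methylation (%, vertical axis) of each testicular and corpus sample over autosomal sites low in cauda, by genomic feature (horizontal axis); symbols are replicates, and the bar beside each group is its mean ± SD (n = 3). Corpus samples reach 4.64% at promoter sites and 17.2 to 18.9% at the other features, and lie above all testicular samples in each.

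Low sites were also grouped by CpG density. Whether the density classes differ from each other was not tested. Density was taken as the number of CpG dinucleotides within 100 bp of a site. Among low sites with 1 to 5 CpGs, testicular replicates had means of 5.05%, 6.21% and 5.44% and corpus replicates 10.5%, 15.7% and 12.5%. Among low sites with over 15 CpGs, testicular replicates had means of 1.16%, 1.26% and 1.21% and corpus replicates 1.43%, 1.84% and 1.35%. The groups did not overlap in either class, but in the dense class they differed by 0.329 points. The share of low sites called higher was 8.22% at 1 to 5 CpGs (93 of 1132), 5.41% at 6 to 10 (140 of 2587), 2.53% at 11 to 15 (37 of 1461) and 0.683% at over 15 (8 of 1172). Low sites in dense CpG clusters, which include the bodies of CpG islands, were thus nearly the same in corpus and testis. The 123 high sites with over 15 CpGs went against their class: testicular replicates had means of 88.7%, 90.9% and 90.1% and corpus replicates 91.1%, 93.2% and 91.6%, without overlap and 2.05 points higher in corpus (exact two-sided permutation p = 0.1). Of the sites called higher 12.0%, and of those called lower 8.94%, lay in repeat sequence, against 15.9% of all sites tested. The mean difference was 1.67 points at repeat sites, without overlap (exact two-sided permutation p = 0.1), and 0.685 points at other sites, with overlap (exact p = 0.4). At low sites it was 4.30 points in repeats and 3.79 points elsewhere, and at high sites -0.671 points in repeats, with overlap, and -2.95 points elsewhere, without overlap.

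The calls were spread over the autosomes. The share of tested sites called in either direction ran from 2.86% on chromosome 12 to 5.38% on chromosome 16. The sex chromosomes were not part of the test. At 207 X sites the mean was 37.0%, 37.1% and 36.4% in testicular replicates and 36.2%, 39.9% and 38.5% in corpus replicates, with overlap (exact two-sided permutation p = 0.4). At 25 Y sites it was 63.0%, 73.5% and 75.3% in testicular replicates and 77.1%, 77.7% and 73.3% in corpus replicates, also with overlap (exact p = 0.3).

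Promoter sites were then grouped by the kind of gene they serve, a grouping made after the calls had been seen and therefore given without a test. Over all promoter sites 1.97% were called higher and 0.558% lower. At 4774 promoter sites of protein-coding genes, 66 were called higher (1.38%) and 22 lower (0.461%). At 345 promoter sites of pseudogenes, 35 were called higher (10.1%) and 3 lower (0.870%), and at 975 promoter sites of noncoding RNA and other genes 19 (1.95%) and 9 (0.923%). Among the pseudogene sites low in cauda, 152 in number, the means were 5.36%, 7.77% and 5.95% in testicular replicates and 13.4%, 24.4% and 16.8% in corpus replicates, with 25 sites called higher (16.4%, against 1.87% of all low promoter sites and 4.38% of all low sites). All corpus samples lay above all testicular samples there, with replicate 2 the highest. That replicate also decided part of the count: without it, 23 pseudogene promoter sites were called higher and 9 lower, and without it the falls at protein-coding promoters numbered 48.

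Counted by gene, 2903 genes had a tested promoter site. Of these, 86 had a site called higher, 28 had a site called lower and 0 had both. At 22 of the former and 6 of the latter 2 or more sites were called. Most of the genes with a call thus rest on a single CpG.

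Neighbouring called sites were joined into runs when they lay within 100 bp and had the same direction. The 375 rises formed 282 runs, of which 207 held a single site, 63 held 2 and 12 held 3 or more. The 179 falls formed 148 runs, of which 121 held a single site, 23 held 2 and 4 held 3 or more. All 16 runs of 3 or more sites are given below, as the regions in which 3 or more neighbouring CpGs were called. Sites of a region are often covered by the same reads, so that they are not independent measurements. For each region the value of a sample is its mean over the called sites, and the difference is that of pooled reads. For 8 of the 16 regions, leaving out 1 corpus replicate removed every call, and the replicate is named at each.

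A region that kept all its calls lay in the coding exon of F2r, which encodes the main thrombin receptor. It held 4 called sites on chromosome 13 from 95604138 to 95604165, covered by 17 to 68 reads. Methylation was 12.2%, 3.71% and 18.5% in testicular replicates 1, 2 and 3 and 88.8%, 42.1% and 47.1% in corpus replicates 1, 2 and 3. All corpus samples lay well above all testicular samples, and corpus replicate 1 was the highest. The pooled difference was 46.5 points, and all 4 sites remained called whichever of the 6 samples was left out, with differences of 33.3 to 64.9 points. The caput samples had 84.7%, 46.2% and 79.8% there and the cauda samples 5.48%, 8.37% and 0%.

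A region upstream of Eid2b had 4 called sites on chromosome 7 from 28277400 to 28277416, at -339 to -323 bp from the start of the gene, covered by 17 to 61 reads. Eid2b belongs to a family of inhibitors of differentiation that bind the acetyltransferase EP300. Methylation was 2.49%, 6.13% and 9.95% in testicular replicates and 49.8%, 21% and 57.7% in corpus replicates 1, 2 and 3. No corpus sample overlapped the testicular ones, and corpus replicate 2 was the lowest of its group. The pooled difference was 40.4 points and 3 or more of the sites remained called whichever sample was left out. Cauda samples had 13.0%, 0.735% and 13.8%, and caput samples 51.7%, 57.1% and 43.5%.

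The intergenic region named here by Gm15323, a long noncoding RNA gene whose start lies 52354 bp away, held 5 called sites on chromosome 13 from 112057856 to 112057898. Methylation was 1.91%, 7.81% and 2.08% in testicular replicates and 5.84%, 46.3% and 68.1% in corpus replicates 1, 2 and 3. Corpus replicate 1 lay within the testicular range, while replicates 2 and 3 lay far above it, so that the groups overlapped at all 5 sites. The pooled difference was 37.7 points. All 5 sites remained called whichever sample was left out, although the pools disagreed. The caput samples had 85.6%, 40.4% and 37.3%.

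A region with the same split lay in the coding exon of P2ry2, a receptor for extracellular ATP and UTP, with 3 sites on chromosome 7 from 100998426 to 100998460. Methylation was 0%, 3.06% and 0% in testicular replicates and 0%, 31.9% and 73.7% in corpus replicates 1, 2 and 3. Corpus replicate 1 had no methylated read there and overlapped the testicular group. Without corpus replicate 3 no site of the region was called and the difference of 37.0 points dropped to 23.7 points. The reads per site and sample numbered 11 to 40.

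The D1Pas1 region lay just upstream of that gene, 146 to 166 bp before its start, with 3 sites on chromosome 1 from 186967250 to 186967270. D1Pas1 encodes a DEAD-box RNA helicase made in male germ cells, and its locus is among those the study examined. Methylation was 0% in all testicular replicates and 20.7%, 56.8% and 0% in corpus replicates 1, 2 and 3. Corpus replicate 3 had no methylated read there, like the testicular samples, but on 12 to 14 reads per site. Corpus replicate 1 had 19 or 20 reads per site, and whether replicates 1 and 3 differ was not tested. Without corpus replicate 2 no site was called, and the difference was 12.4 points in place of 36.1. Caput samples had 89.9%, 48.7% and 71.1%, and cauda samples 0%, 0% and 4.85%.

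Other rises showed the same dependence on a pool. The intergenic region named by Gm5973, on chromosome 1 from 40955185 to 40955207, had 0%, 14.4% and 3.92% in testicular replicates and 32.0%, 22.6% and 76.2% in corpus replicates. It was not called without corpus replicate 3 (19.2 points in place of 35.0). A region in Cdh13, which encodes an adiponectin-binding cadherin, lay in an intron on chromosome 8 from 118639167 to 118639186 and had 0.726%, 3.51% and 0% in testicular replicates and 26.4%, 16.2% and 45.1% in corpus replicates. It too was not called without corpus replicate 3, at 17.5 points in place of 28.0, although no corpus sample overlapped the testicular ones in either region. A region named by Grb14, an adaptor that inhibits the insulin receptor, lay past the 3′ end of the gene, 22344 bp from its nearest transcript start, on chromosome 2 from 64892659 to 64892675, with 14.6%, 5.64% and 11.8% in testicular replicates and 26.4%, 48.8% and 31.0% in corpus replicates. This region, covered by 43 to 178 reads, was not called without corpus replicate 2 (19.8 points in place of 28.0) and lost 1 call without testicular replicate 2. The groups did not overlap there either.

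In the coding exon of Taar4, a receptor for volatile amines in the olfactory system, 3 sites on chromosome 10 from 23960885 to 23960902 had 0%, 10.1% and 14.9% in testicular replicates and 58.6%, 46.9% and 19.8% in corpus replicates. It was not called without corpus replicate 1, at 23.3 points in place of 28.7, and lost 1 call without corpus replicate 2, testicular replicate 1 or testicular replicate 2. Near the predicted coding gene Gm3045, 3 sites on chromosome 13 from 56424571 to 56424600 had 6.56%, 24.5% and 6.20% in testicular replicates and 32.9%, 39.8% and 50% in corpus replicates. In both regions the means of the corpus samples lay above those of the testicular samples, although at 23960885 in Taar4 corpus replicate 3 (30.3%) lay below testicular replicate 3 (38.7%). At Gm3045 a single site remained called without corpus replicate 3 or without testicular replicate 1, and 2 without testicular replicate 3. In the pseudogene Gm4761, 3 sites on chromosome 6 from 67414667 to 67414688 had 12.2%, 8.48% and 5.22% in testicular replicates and 27.0%, 59.8% and 30.1% in corpus replicates, and none was called without corpus replicate 2 (20.3 points in place of 30.9).

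The other rise with 5 called sites lay in the processed pseudogene AC131065.1, on chromosome 18 from 80162867 to 80162893. Methylation was 0%, 9.87% and 0% in testicular replicates and 12.1%, 46.5% and 45.9% in corpus replicates 1, 2 and 3. Corpus replicate 1 was the lowest of its group and near testicular replicate 2. No site was called without corpus replicate 2, where the difference was 21.2 points in place of 29.9, and 4 were called without corpus replicate 3.

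Among the regions called lower, that in the 3′ UTR of Tars was the most even across pools. Tars encodes the enzyme that charges tRNA with threonine. Its 3 sites on chromosome 15 from 11383930 to 11383947 had 99.1%, 94.4% and 100% in testicular replicates and 71.2%, 58.3% and 58.3% in corpus replicates. The groups were well apart, at 12 to 42 reads per site and sample, and 2 or more sites remained called whichever sample was left out. The pooled difference was -36.4 points. The cauda samples had 100%, 93.8% and 100%, and the caput samples 27.3%, 71.4% and 100%.

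A region in an exon of a noncoding transcript of Azin2, an antizyme inhibitor that raises polyamine synthesis, held 3 sites on chromosome 4 from 128945936 to 128945943. Methylation was 49.6%, 70.0% and 63.5% in testicular replicates and 13.0%, 28.5% and 42.4% in corpus replicates. The groups did not overlap, the difference was -30.3 points, and a single site remained called without corpus replicate 1 or without testicular replicate 3, and 2 without corpus replicate 2 or testicular replicate 2. An intergenic region named by the small nuclear RNA gene Gm25609, on chromosome 1 from 137182660 to 137182670, had 100%, 100% and 98.7% in testicular replicates and 27.3%, 61.9% and 100% in corpus replicates. Corpus replicate 3 was fully methylated like the testicular samples, on 12 reads per site, and corpus replicate 1 had 11 reads per site. All 3 sites remained called whichever sample was left out, at -46.7 to -26.8 points. The intergenic region named by Tle4, a transcriptional corepressor whose nearest transcript start lies 168873 bp away, held 3 sites on chromosome 19 from 14426634 to 14426666 with 55.9%, 90.6% and 81.0% in testicular replicates and 65.2%, 39.8% and 18.2% in corpus replicates. There corpus replicate 1 lay above testicular replicate 1, and 1 of the 3 sites lost its call without corpus replicate 3.

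**Figure D3:**
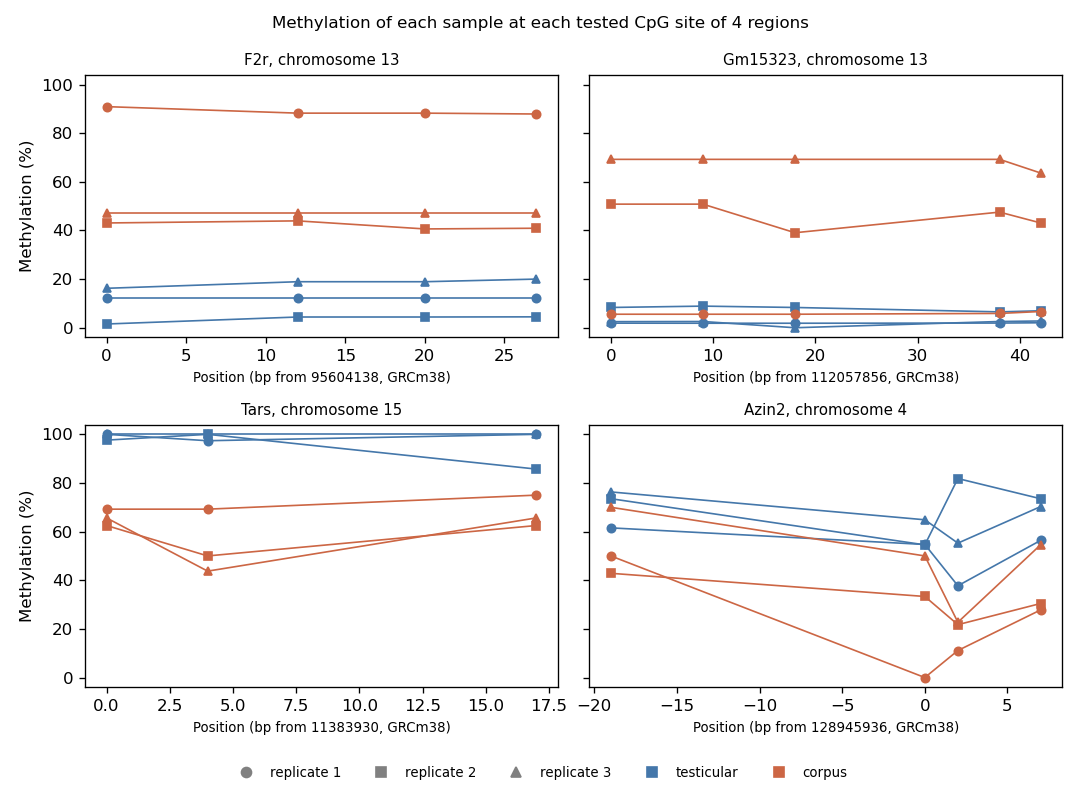
Methylation (%, vertical axis) at each tested CpG site of 4 regions, against position in bp from the leading called site on GRCm38 (horizontal axis); each line is a sample, coloured by group, with symbols for replicates. Corpus replicates lie apart from all testicular replicates at F2r (means over the called sites of 42.1 to 88.8% against 3.71 to 18.5%) and Tars. Corpus replicate 1 joins the testicular samples at Gm15323, and Azin2 has an uncalled site at its left end where the groups overlap.

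The sequences of 6 of these regions are shown because they differ in CpG spacing and in how the pools behaved: in F2r, Eid2b and Cdh13 every corpus pool lay above the testicular samples, in Gm15323 corpus replicate 1 did not, and in Gm25609 and Tle4 a corpus pool overlapped the testicular samples. Each is the plus strand of GRCm38, 5′ to 3′, from 30 bp before the leading called site to 30 bp past the last, and capitals mark the called CpG dinucleotides. The windows are chr13:95604108-95604195 for F2r, chr7:28277370-28277446 for Eid2b, chr13:112057826-112057928 for Gm15323, chr8:118639137-118639216 for Cdh13, chr1:137182630-137182700 for Gm25609 and chr19:14426604-14426696 for Tle4. They hold 8, 5, 8, 5, 4 and 6 CpG dinucleotides in that order, called or not.
F2r: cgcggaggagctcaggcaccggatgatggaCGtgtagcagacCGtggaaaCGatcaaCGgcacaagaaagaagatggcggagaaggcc
Eid2b: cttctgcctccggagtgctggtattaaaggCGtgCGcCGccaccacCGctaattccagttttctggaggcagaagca
Gm15323: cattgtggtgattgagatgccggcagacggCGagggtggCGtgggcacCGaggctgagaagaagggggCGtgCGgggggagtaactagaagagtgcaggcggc
Cdh13: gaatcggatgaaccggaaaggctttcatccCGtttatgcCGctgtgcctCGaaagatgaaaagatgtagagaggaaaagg
Gm25609: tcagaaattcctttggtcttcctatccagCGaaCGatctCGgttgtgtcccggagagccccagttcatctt
Tle4: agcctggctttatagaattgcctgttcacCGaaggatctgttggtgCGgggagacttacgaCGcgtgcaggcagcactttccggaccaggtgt

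The largest single-site differences were taken among called sites at which the corpus and testicular values did not overlap. Each of the 16 sites named here, 8 rises and 8 falls, remained called whichever of the 6 samples was left out. The largest rise was at position 78167736 on chromosome 12, in a repeat 2190 bp from the small nucleolar RNA gene Gm24994. Testicular replicates 1, 2 and 3 had 9.09% (1 of 11 reads), 14.3% (2 of 14) and 8.70% (2 of 23), with Wilson 95% intervals of 1.62 to 37.7%, 4.01 to 39.9% and 2.42 to 26.8%. Corpus replicates 1, 2 and 3 had 100% (43 of 43 reads), 50% (12 of 24) and 93.8% (45 of 48), with intervals of 91.8 to 100%, 31.4 to 68.6% and 83.2 to 97.9%. The groups were far apart in replicates 1 and 3, and the interval of corpus replicate 2 overlapped those of testicular replicates 1 and 2. The pooled difference was 76.5 points. The cauda samples had 52.9%, 25% and 66.7% at this site, above the testicular samples.

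At position 98864517 on chromosome 9, 250 bp before the start of the coding gene Prr23a3, the testicular replicates had 0 of 34, 0 of 28 and 0 of 14 methylated reads. Those counts allow levels of up to 8.82%, 10.7% and 21.4% (3 reads of the total). The corpus replicates had 90% (9 of 10), 47.6% (10 of 21) and 58.8% (10 of 17), with Wilson 95% intervals of 59.6 to 98.2%, 28.3 to 67.6% and 36.0 to 78.4%. Every corpus interval lay above every testicular limit. The caput samples had 79.3%, 20% and 46.9% and the cauda samples 0% each. A neighbouring site of this promoter was called too, and both remained called whichever sample was left out.

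In an intron of Adamts20, which encodes a secreted metalloprotease, the site at 94430274 on chromosome 15 had 10.7%, 11.3% and 15.6% in testicular replicates and 80%, 59.4% and 54.3% in corpus replicates, from 15 to 71 reads. In an intron of the noncoding gene Gm49729, the site at 24371820 on chromosome 15 had 50%, 39.1% and 53.8% in testicular replicates and 100%, 95.8% and 100% in corpus replicates. This was a rise from partial to full methylation, and the replicates of each group lay close together. A site in the pseudogene Tdg-ps, a copy of the gene for thymine DNA glycosylase, at 82516744 on chromosome 15 had 30.3%, 11.1% and 4.55% in testicular replicates and 33.3%, 63.9% and 78.8% in corpus replicates, so that corpus replicate 1 and testicular replicate 1 nearly met. The site near the ribosomal protein pseudogene Rpl21-ps4, at 11236482 on chromosome 14, had 13.3%, 1.82% and 24.2% in testicular replicates and 33.3%, 46.7% and 95.2% in corpus replicates. Its difference of 51.7 points rested on corpus replicate 3, without which it was 29.0 points. The F2r site at 95604138 was also among the 8 rises.

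The remaining rise was at 39844767 on chromosome 17 in Gm26917, a locus that holds a copy of the ribosomal RNA precursor. Methylation was 0%, 14.8% and 19.2% in testicular replicates and 87.7%, 26.9% and 79.5% in corpus replicates 1, 2 and 3. At this site every corpus sample lay above every testicular sample. Over all 81 tested sites of the locus, from 39843503 to 39848799, the means were 22.1%, 39.3% and 30.6% in testicular replicates and 29.8%, 36.7% and 27.1% in corpus replicates, with overlap (exact two-sided permutation p = 1), and 2 sites were called. Every corpus sample lay above every testicular sample at 3 of the 81 sites and below at 6. Over all autosomal sites the shares of such sites were 7.13% and 4.01%. The site at 39844767 was therefore not typical of its locus.

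The largest fall was at 98354708 on chromosome 7, in an intron of Tsku, which encodes a secreted leucine-rich proteoglycan. Testicular replicates had 100%, 100% and 96.4%, and corpus replicates had 0%, 68.4% and 36.4%, from 10 to 28 reads. The pooled difference was -56.1 points, with corpus replicate 1 at the far end and replicate 2 nearest to the testicular samples. In an intron of Abhd4, a lipase gene, within 2 kb of the starts of Abhd4 and of Dad1, the site at 54254962 on chromosome 14 had 71.4%, 75.8% and 44.8% in testicular replicates and 6.67%, 13.2% and 14.3% in corpus replicates. Here the corpus pools lay close together and all were nearly unmethylated, a fall past the middle of the range.

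Of the other falls, the site at 117509005 on chromosome 4 near the pseudogene Gm12826 had 68.0%, 42.9% and 76.9% in testicular replicates and 0%, 38.5% and 0% in corpus replicates, from 10 to 26 reads. The site at 121713551 on chromosome 3, in the promoter of the noncoding gene Gm43607, had 90.9%, 97.6% and 100% in testicular replicates and 33.3%, 68.2% and 17.2% in corpus replicates. Corpus replicate 2 was the highest of its group at both. The site at 114015837 on chromosome 11, in an intron of the cell adhesion gene Sdk2, had 89.7%, 94.5% and 96.1% in testicular replicates and 14.8%, 68.6% and 29.2% in corpus replicates, and its difference of -44.9 points became -72.1 points without corpus replicate 2. The site at 46039688 on chromosome 16, in an intron of Cd96, a receptor of T and natural killer cells, had 50%, 44.4% and 78.3% in testicular replicates and 0%, 36.4% and 5.56% in corpus replicates. Again corpus replicate 2 lay nearest to the testicular samples. In the 3′ UTR of Lgi2, a secreted leucine-rich protein of neurons, the site at 52534930 on chromosome 5 had 100%, 98% and 100% in testicular replicates and 55.9%, 76.7% and 21.4% in corpus replicates. The remaining fall, at 11383934 in Tars, belongs to the region described for that gene.

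Promoters with the most called sites were partly those of the regions already given: AC131065.1, Eid2b, D1Pas1, Gm4761 and Taar4 among the rises. The promoter with the most called sites was that of the pseudogene Gm6440, with 6 of 9 tested sites called on chromosome 16 from 17137128 to 17137537, and means of 6.67%, 17.9% and 20.5% in testicular replicates and 24.1%, 50.2% and 52.5% in corpus replicates. The groups did not overlap in these means, and 2 of the 6 sites remained called without corpus replicate 2 or without corpus replicate 3. Without testicular replicates 1, 2 and 3 in turn 3, 4 and 5 remained. Chrm5, a muscarinic acetylcholine receptor gene, had both of its tested sites called, at 112480071 to 112480103 on chromosome 2, with 0%, 1.09% and 6.90% in testicular replicates and 59.4%, 55.3% and 34.3% in corpus replicates. Spx, which encodes a peptide hormone, had 2 of 3 sites called at 142414079 to 142414108 on chromosome 6, with 0%, 9.78% and 13.6% in testicular replicates and 32.3%, 62.3% and 53.4% in corpus replicates. In both promoters the groups were apart, and the calls remained whichever sample was left out. The promoters of Prr23a3, with 2 of 2 tested sites called, and of Gm26917, with 2 of 47, completed the rises. At Gm26917 the groups did not overlap at 1 of the called sites. There 1 call was lost without corpus replicate 3 or without testicular replicate 1.

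Among promoters called lower, Gja5, which encodes a connexin of gap junctions, had 2 sites within the gene and before an internal transcript start, at 97032124 to 97032129 on chromosome 3, covered by 59 to 158 reads, with 52.6%, 63.8% and 60.2% in testicular replicates and 37.6%, 39.7% and 21.6% in corpus replicates. The groups did not overlap, but the calls were lost without corpus replicate 3 (-19.4 points in place of -25.3) and without testicular replicate 2 (-21.6 points), and 1 of them without testicular replicate 3. A site within Usp10, a deubiquitinase gene, at 119952407 on chromosome 8 and -245 bp from an internal transcript start had 92.1%, 91.5% and 91.3% in testicular replicates and 66.7%, 57.6% and 52.0% in corpus replicates. Its replicates lay close together in both groups. The noncoding genes Gm47918 and Arhgap27os2 and the pseudogene Rp31-ps19 had 2 sites each, at -36.1, -30.3 and -35.1 points. Those of Arhgap27os2 were lost without testicular replicate 2, at -19.7 points. The pseudogene Gm6581 and the antisense gene 0710001A04Rik had a single site each, at -39.0 and -41.3 points, and Gm43607 and Abhd4 had 2 sites each, at -46.4 and -40.0 points. The value of Gm43607 was -71.8 points without corpus replicate 2 and -30.2 points without corpus replicate 3.

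Lists of genes were followed for the identity of the cells and for development, and are described by counts and by the median difference, which was 0 over all sites tested. Not every member had a tested site in its body or promoter, so that the lists speak for those members and not for their classes. Germline genes are unmethylated at their promoters in germ cells and methylated in most somatic cells; 7 of 29 had tested sites, 16 in all. Their mean was 41.6%, 39.4% and 40% in testicular replicates and 50.4%, 53.2% and 48.4% in corpus replicates, without overlap, with a median difference of 8.94 points. Of the 16 sites 2 were called higher, 12.5% against 2.69% over all sites. At the 10 of these sites that lay in promoters, the means were 7.24%, 4.65% and 6.19% in testicular replicates and 20.7%, 26.6% and 18.4% in corpus replicates. All corpus samples thus lay above all testicular samples at the promoters as well. Both called sites lay in the 5′ UTR of Tex101, a surface protein of germ cells needed for sperm passage into the oviduct. At 24672021 on chromosome 7, Tex101 had 0% in each testicular replicate and 40%, 39.1% and 16.7% in corpus replicates, and the call remained whichever sample was left out. Its neighbour at 24672007 had 0%, 0% and 8% against 20%, 37.0% and 16.7% and was not called without corpus replicate 2 (15.6 points in place of 25.8), without testicular replicate 1 (24.0 points) or without testicular replicate 2 (24.7 points).

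Genes of spermatids and spermatozoa, 4 of 30 with 10 sites, had means of 39.4%, 42.8% and 44.3% in testicular replicates and 52.4%, 56.4% and 49.0% in corpus replicates, without overlap. Their median difference was 7.02 points, and the 3 called sites (30% of the 10, against 2.69% over all sites) were those of D1Pas1, which rested on corpus replicate 2: without it the differences at those sites were 11.8 to 12.9 points and none was called. None of the 4 members separated the groups by itself. Corpus replicate 2 had 6.25% at Izumo1 and 0% at Tssk6, and Dnah17 overlapped too. D1Pas1 is also among the loci the study examined, so that the separation of this list is a description only. Paternally methylated imprinted loci carry methylation in sperm, and maternally methylated ones lack it. At the former, 3 of 6 members with 7 sites had means of 14.8%, 14.4% and 13.3% in testicular replicates and 15.8%, 14% and 14.5% in corpus replicates. At the latter, 7 of 25 members with 16 sites had means of 24.2%, 24.5% and 26.8% in testicular replicates and 24.9%, 27.9% and 30.4% in corpus replicates. The groups overlapped in both lists, with median differences of 0.667 and 2.41 points, and no site was called in either list. At the 5 promoter sites of the paternal list the means were 19.6%, 20.1% and 18.6% in testicular and 22.2%, 19.6% and 18.3% in corpus replicates. At the 11 promoter sites of the maternal list they were 0%, 1.12% and 4.80% in testicular and 0%, 5.51% and 6.15% in corpus replicates. Sites were taken over whole genes and promoters and were not placed against the imprinting control regions, so that these levels do not grade the purity of the sort.

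Genes of the epididymal epithelium, 4 of 28 with 22 sites, had means of 52.2%, 57.9% and 51.8% in testicular replicates and 50.7%, 46.8% and 40% in corpus replicates, without overlap and with a median difference of -9.13 points. The site called lower (4.55% of the 22, against 1.29% over all sites) lay in Krt18, a keratin gene of simple epithelia, at 102029521 on chromosome 15, with 100%, 100% and 94.9% in testicular replicates and 69.0%, 75% and 75% in corpus replicates. It lay close to the size threshold at -25.6 points and was not called without corpus replicate 1 (-23.7 points), without testicular replicate 1 (-24.8 points) or without testicular replicate 2 (-24.9 points). Leukocyte genes, 2 of 11 with 7 sites, had means of 67%, 70.4% and 64.6% in testicular replicates and 61.2%, 66.2% and 65.1% in corpus replicates. Genes of vessels, muscle and stroma, 4 of 13 with 15 sites, had means of 35.4%, 23.8% and 23.4% in testicular replicates and 23.0%, 33.8% and 34.1% in corpus replicates. Genes of somatic cells of the testis, 2 of 9 with 17 sites, had means of 4.26%, 6.06% and 6.62% in testicular replicates and 5.32%, 5.33% and 5.58% in corpus replicates. In these last 3 lists the groups overlapped, the median differences were 0, 7.46 and 0 points in that order, and no site was called. The part of other cells in the differences was not tested.

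Developmental regulators were the largest list, with 64 of 126 members and 206 sites. Their means were 12.5%, 12.0% and 11.4% in testicular replicates and 11.3%, 13.9% and 12.7% in corpus replicates, with overlap. The median difference was 0, as over all sites, and 2 sites were called higher (0.971%, against 2.69% over all sites) and 4 lower (1.94%, against 1.29%). In the coding exon of Hoxa2, a homeobox gene of the hindbrain, the site at 52163387 on chromosome 6 had 8.25%, 10.0% and 5.88% in testicular replicates and 32.8%, 39.1% and 41.0% in corpus replicates, from 61 to 134 reads. It had the highest coverage of these sites and its replicates lay close together in both groups. At 74721843 on chromosome 2, within Hoxd3 and Hoxd4 and 135 bp before an internal transcript start of Hoxd4, methylation was 97.8%, 94.0% and 96.0% in testicular replicates and 55.0%, 67.4% and 60.4% in corpus replicates. Both calls remained whichever sample was left out.

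The other calls among developmental regulators were nearer to the thresholds. The promoter site of Gata2, a regulator of blood progenitors, at 88203156 on chromosome 6 had 76.2%, 92.8% and 88.1% in testicular replicates and 43.8%, 55.2% and 63.3% in corpus replicates, and remained called whichever sample was left out. The site of Lhx1, a homeobox gene of the head organiser and kidney, at 84521920 on chromosome 11 had 0%, 2.94% and 0% in testicular replicates and 25%, 20% and 33.3% in corpus replicates, at 15 reads or more. Its difference of 25.4 points was not called without corpus replicate 3 (21.4 points), testicular replicate 1 (25 points, not above the threshold) or testicular replicate 3 (24.7 points). Lhx6 and Sox13 fell by 29.4 and 27.0 points at intron sites. The call of Lhx6 was lost without corpus replicate 3 (-23.1 points), and that of Sox13 without corpus replicate 2 (-24.4 points) or testicular replicate 2 (-21.4 points).

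Genes of enzymes that write or remove DNA methylation, 3 of 10 with 9 sites, had means of 73.3%, 75% and 73.2% in testicular replicates and 74.3%, 79.0% and 77.8% in corpus replicates, with overlap, a median difference of 1.99 points and no called site. Genes named at loci that the study examined, 9 of 15 with 27 sites, were taken over their whole length, so that the sites need not lie at the positions of the study. They had means of 47.3%, 48.2% and 48.5% in testicular replicates and 43.7%, 50.1% and 47.0% in corpus replicates, with overlap and a median difference of 0.196 points. The study chose those loci largely on its caput samples, so they are not an independent sample of sites. The 3 called sites among them (11.1% of the 27, against 2.69% over all sites) were again those of D1Pas1. The 6 sites in Susd1, from 59360926 to 59360964 on chromosome 4, lie within the region the study lists for that gene between caput and testis. They had 48.6%, 67.5% and 69.6% in testicular replicates and 45.2%, 38.7% and 42.1% in corpus replicates, without overlap. None of them passed the size threshold.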

How the data were processed

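Methylation was measured by RRBS in sorted spermatozoa, with 3 pools per group. By the submitters' processing notes, reads were trimmed with Trim Galore 0.4.1 and aligned with Bismark 0.16.1 to GRCm38. The authors deposited a table of read counts: for each CpG site and sample, the count of methylated, unmethylated and total reads, with 10 or more reads in all 12 samples. The 6 deposited lists of differential sites and regions hold the authors' own comparisons and were not used here. The table's coverage minimum and its CpG positions were checked on the file.

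The percentage of a site is 100 times the methylated over the total reads. Reads were pooled by group, a logistic regression without covariate or overdispersion was fitted to each site, its likelihood-ratio test was taken, and p-values were adjusted by Benjamini-Hochberg over the 13917 autosomal sites. Calls needed an adjusted p under 0.01 and a pooled difference above 25 percentage points. Sample means were compared by exact two-sided permutation tests. Annotation was GENCODE M21. Wilson intervals and limits from 3 counts cover counting error only, since PCR reads without molecular identifiers are not independent molecules. All p-values measure the spread between these pools or, for calls, the counting of reads. Depth ranged from 420774 to 993646 autosomal reads per sample.

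Named items followed a rule: up to 10 runs per direction of 3 or more called sites at most 100 bp apart; the 8 largest rises and 8 largest falls where the groups do not overlap; the 10 promoters with the most called sites per direction; and called members of the gene lists. A site took the name of the nearest transcript start within 2 kb, else of the gene holding it, else of the nearest gene. All 12 runs of rises were named, 2 more than the rule gives, chosen after their values were seen. Members and lists were chosen with earlier results of these data known. The lists were germline genes, spermatid and sperm genes, paternally and maternally methylated imprinted loci, epididymal epithelium, leukocytes, vessel, muscle and stroma, testicular somatic cells, developmental regulators, DNA methylation enzymes and loci the study examined; D1Pas1, Cald1, Ldb3, H19, Gata4, Sox9 and Pax2 stand in 2 lists each.

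Alternatives varied the test, thresholds, coverage minimum, strands, windows, weighting, class limits, promoter reach and replicates. Software was Python 3.11.15, numpy 2.4.6, pandas 2.3.3, scipy 1.17.1, pysam 0.24.0, matplotlib 3.10.9, samtools 1.23.1, R 4.3.3 and limma 3.58.1. The fit was tested on simulated data.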

Additional observations from a re-analysis of the deposited data

How the results depend on the processing

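The counts of called sites were recomputed under each alternative. With an overdispersion term and an F test the counts were 0 higher and 0 lower, and 0 in each direction without overlap, with 1346 sites at an unadjusted p under 0.05. With limma they were 2 higher and 1 lower at a pseudo-percent of 1 (1265 sites at an unadjusted p under 0.05), and 1 higher and 0 lower at a pseudo-percent of 5 (1288 sites). All of these sites had groups that did not overlap. Above 40 points, 44 sites were called higher and 24 lower, of which 35 and 18 did not overlap, by the construction of a stricter threshold. With 20 reads or more in each of the 6 samples 5734 sites were tested, 137 were called higher and 38 lower, and 119 and 34 did not overlap. In windows of 100 bp, 9404 were tested and 241 were called higher, against 128 lower. An adjusted p under 0.001, merged strands, added sex chromosomes and a difference of sample means kept all 4 counts within 1.5 times.

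Leaving out each sample in turn gave 340 to 463 sites called higher, 166 to 338 called lower, and 266 to 406 and 132 to 270 without overlap, where fewer samples make overlap rarer. The highest count of falls came without corpus replicate 2. With 1 corpus pool alone, an alternative chosen after seeing the data, falls numbered 548 for replicate 1 and 334 for replicate 3, and rises 595 for replicate 2. These counts hold the reads of 1 corpus library, carry no spread between corpus pools and depend on its depth, so that they describe the pools and test nothing between them. The cause was not tested. Leaving out samples for named regions, sites, promoters, list members and site classes was also chosen after seeing the data, and losses of calls are given with the items.

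Mean differences at low and high sites kept their direction under all alternatives run except the median over sites, which was 0 at low sites and 0.755 at high sites. When each sample was left out they were 3.16 to 4.39 and -2.74 to -2.04. At intermediate sites that range was -0.485 to 3.33, and the value without testicular replicate 1 was -0.0234. By the share of all reads, the difference was 0.127 at intermediate sites, -4.47 over all sites, -1.89 at promoters, -1.50 in exons, -2.89 in introns (exact permutation p = 0.1) and -2.29 at intergenic sites. By the median over sites it was 3.45 over all sites, 0 at promoters, -2.03 in exons, 0.657 in introns and -4.28 at intergenic sites. With 20 reads or more it was 2.54 in exons and -0.183 in introns. When each sample was left out it was 0.198 to 1.46 over all sites, 0.751 to 1.67 at promoters, 0.582 to 1.92 in exons, -1.08 to 0.197 in introns and 0.248 to 2.02 at intergenic sites. The cause was not tested.

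The labels do not say whether pools of equal replicate number share mice. Deviations from the group mean at equal numbers correlated at -0.0219, 0.0412 and -0.0203. Corpus replicate 1 correlated best with testicular replicate 3 (0.0296), corpus replicate 2 with testicular replicate 2 (0.0412) and corpus replicate 3 with testicular replicate 1 (0.0452). Correlations this small, which hold the counting error of reads, cannot decide whether the samples are paired. With the replicate number as a block the counts were 375 and 179, and 259 and 125 without overlap.

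At 20 reads, the median coverage of corpus replicate 1, 1 read is 5 points, so that differences near 25 points rest on few reads in that pool.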
